A study of Mus musculus with 2 samples.

Results

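Chromatin accessibility was examined at 8 Sox genes with roles in blood or in the vessels that give rise to it, namely Sox4, Sox12, Sox5, Sox6, Sox13, Sox7, Sox17 and Sox18, out of 21853 annotated mouse protein-coding genes. The genes were taken by name. The series held 2 libraries of assay for transposase-accessible chromatin with sequencing (ATAC-seq), in which a transposase cuts and tags open DNA, so that stretches with many cuts stand out as peaks. Both came from primary hematopoietic stem cells (HSC) of 5 to 6 week old C57BL/6J males, with 50000 cells per library and no treatment or engineered allele in the labels. They formed 1 group with replicates 1 and 2, and there was no fetal sample and no second cell type, so fetal and adult blood could not be compared here. Both replicates carried the same donor identifier and nothing in the labels stated that they came from separate animals, so their spread may be technical.

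Sox proteins bind DNA through an HMG box, which fits into the minor groove, bends the helix and recognises short sites with a core such as ACAAAG. The family is divided by sequence. The SoxC proteins Sox4 and Sox12 are transcriptional activators, and Sox4 is required for early B cell development in the mouse. The SoxD proteins Sox5, Sox6 and Sox13 have a coiled coil for pairing and no activation domain of their own. The SoxF proteins Sox7, Sox17 and Sox18 act in endothelium and in the blood-forming cells that emerge from it. In the mouse, Sox17 is needed to maintain fetal and newborn HSC and is dispensable in the adult.

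Each replicate had a peak list filtered on the irreproducible discovery rate (IDR; called thresholded here), with 25141 intervals in replicate 1 and 24495 in replicate 2. Each also had a longer, less strict list, with 62918 and 64843 intervals. A peak height, the authors' signal value, was used to rank peaks within a list, and a percentile is the rank of a peak in its own list. Signal values of both replicates are also printed side by side, though their scale may differ between lists. The median signal was 8.57 in replicate 1 and 9.64 in replicate 2. A promoter was called accessible when a peak lay within 1000 bp, on either side, of any transcription start site (TSS) that the annotation gives to a protein-coding transcript. A shared distal peak was a replicate 1 peak that overlapped one of replicate 2, with its summit over 1000 bp from every protein-coding TSS and inside the gene or within 100 kb of one of its TSSs. Distances are from the nearest TSS of the gene, and negative ones lie upstream. With 1 group of 2 replicates no comparison between conditions exists, and no test was run. Read depth cannot be read from peak lists, so a missing peak means not detected at the depth of these libraries.

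Sequences at the promoters and at accessible sites are given first. The stretches directly upstream of the Sox4 and Sox12 starts are shown to set these 2 SoxC promoters side by side, with CG dinucleotides in capitals. The thresholded promoter peak of Sox4 covers its stretch, while that of Sox12 lies farther upstream, at chr2:152398691-152399150, and only a less strict peak overlaps the Sox12 stretch. The letters come from RefSeq promoter windows on GRCm38 (mm10), 230 bases each, read 5′ to 3′ on the strand of the gene. The Sox4 stretch held 8 CG dinucleotides and the Sox12 stretch held 35. Entries in the RefSeq promoter table matched 5 of the 8 genes, Sox4, Sox12, Sox5, Sox6 and Sox13.

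Sox4 promoter, chr13:28953720-28953949, minus strand: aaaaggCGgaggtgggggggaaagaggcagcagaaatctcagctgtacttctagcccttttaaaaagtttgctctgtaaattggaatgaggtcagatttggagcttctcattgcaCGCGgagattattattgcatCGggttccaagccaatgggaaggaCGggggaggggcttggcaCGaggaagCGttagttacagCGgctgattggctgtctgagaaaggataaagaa
Sox12 promoter, chr2:152398067-152398296, minus strand: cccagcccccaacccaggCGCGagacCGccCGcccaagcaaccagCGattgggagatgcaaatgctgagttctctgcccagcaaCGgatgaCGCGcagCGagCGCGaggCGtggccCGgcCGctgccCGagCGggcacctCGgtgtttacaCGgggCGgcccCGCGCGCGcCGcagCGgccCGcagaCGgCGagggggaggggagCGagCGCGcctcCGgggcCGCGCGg

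The next windows hold the replicate 1 summit of a shared distal peak with 50 bases on either side, from GRCm38 (mm10) and on the strand of the gene named. Those of Sox4, Sox17 and Sox7 and the Sox12 window at -8.20 kb were chosen for their high rank or because they were nearest to the gene, and the others, the Sox12 window at +34.5 kb among them, because they carried a letter match to a SOX, RUNX, GATA, PU.1 or other motif. Capitals mark the matches, in either orientation.

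Sox4 distal -6.02 kb, chr13:28959678-28959778, minus strand: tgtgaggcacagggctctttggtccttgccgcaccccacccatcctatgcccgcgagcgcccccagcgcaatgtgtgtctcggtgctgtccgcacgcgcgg
Sox12 distal -8.20 kb, chr2:152406217-152406317, minus strand: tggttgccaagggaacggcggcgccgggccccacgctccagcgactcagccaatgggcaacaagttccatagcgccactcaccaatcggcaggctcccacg
Sox12 distal 34.5 kb, chr2:152363543-152363643, minus strand: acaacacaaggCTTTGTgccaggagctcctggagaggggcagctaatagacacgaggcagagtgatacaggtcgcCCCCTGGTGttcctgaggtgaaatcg
Sox5 distal 78.8 kb, chr6:143868282-143868382, minus strand: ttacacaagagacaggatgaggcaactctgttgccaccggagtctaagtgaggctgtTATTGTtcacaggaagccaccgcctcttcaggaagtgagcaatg
Sox5 distal -461 kb, chr6:144670496-144670596, minus strand: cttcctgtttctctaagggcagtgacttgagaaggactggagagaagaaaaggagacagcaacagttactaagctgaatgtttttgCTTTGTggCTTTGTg
Sox5 distal -468 kb, chr6:144677632-144677732, minus strand: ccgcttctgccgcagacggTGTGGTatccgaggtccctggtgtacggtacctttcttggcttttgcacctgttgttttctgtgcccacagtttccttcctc
Sox6 distal 123 kb, chr7:115539210-115539310, minus strand: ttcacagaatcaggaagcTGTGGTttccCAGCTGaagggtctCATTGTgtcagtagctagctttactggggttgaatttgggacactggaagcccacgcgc
Sox6 distal 112 kb, chr7:115550601-115550701, minus strand: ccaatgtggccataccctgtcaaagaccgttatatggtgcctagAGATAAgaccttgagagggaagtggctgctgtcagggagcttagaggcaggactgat
Sox6 distal 53.1 kb, chr7:115941914-115942014, minus strand: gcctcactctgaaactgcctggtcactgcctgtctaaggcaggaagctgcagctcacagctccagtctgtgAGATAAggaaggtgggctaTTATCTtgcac
Sox7 distal 14.2 kb, chr14:63957859-63957959, plus strand: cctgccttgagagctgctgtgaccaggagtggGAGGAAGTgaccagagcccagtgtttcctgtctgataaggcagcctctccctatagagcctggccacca
Sox17 distal 3.06 kb, chr1:4490623-4490723, minus strand: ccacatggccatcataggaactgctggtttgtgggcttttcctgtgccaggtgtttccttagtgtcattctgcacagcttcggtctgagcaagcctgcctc
Sox17 distal -74.6 kb, chr1:4571931-4572031, minus strand: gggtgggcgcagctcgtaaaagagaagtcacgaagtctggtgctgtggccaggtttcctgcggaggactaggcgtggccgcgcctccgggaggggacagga
Sox18 distal 11.9 kb, chr2:181659700-181659800, minus strand: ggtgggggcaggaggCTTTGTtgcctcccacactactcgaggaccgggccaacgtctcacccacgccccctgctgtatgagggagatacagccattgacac

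Of the 8 Sox genes, 3 had a promoter peak in both thresholded lists: Sox4, Sox12 and Sox17. Among all protein-coding genes the share was 41.3% (9030 of 21853), so 3 of 8 lay near the background. In the less strict lists Sox5 and Sox6 joined them, giving 5 of 8, against 58.0% of all genes. Sox6 was counted there through different starts in replicates 1 and 2. For Sox13, replicate 2 alone listed one, in its less strict list. Sox7 and Sox18 had none in any per-replicate list, including the ranked lists from which the thresholded ones were cut.

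**Figure D1:**
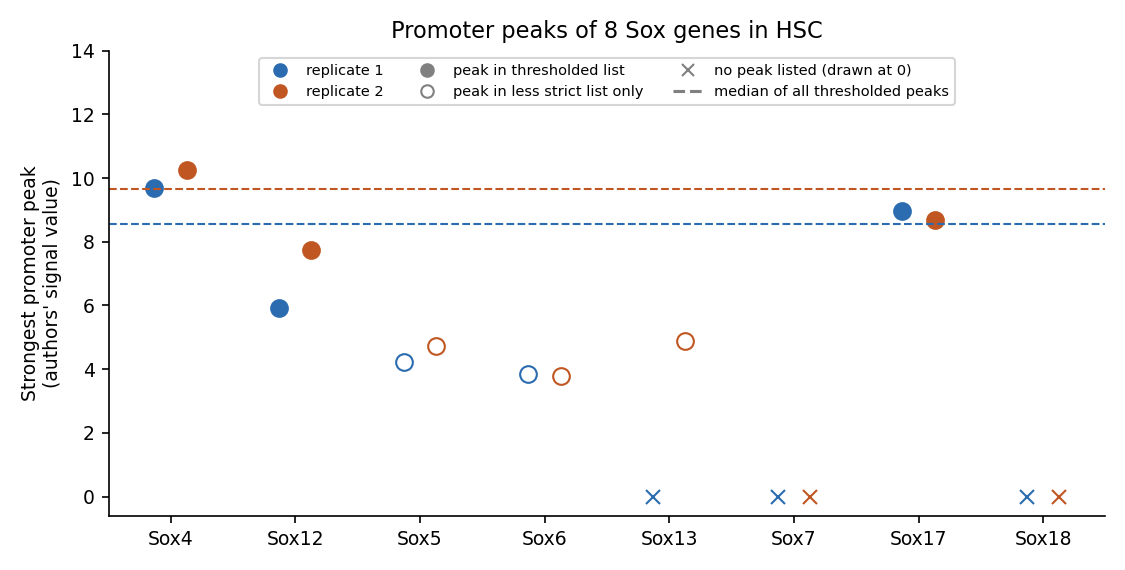
Signal value of the strongest promoter peak of each Sox gene (y axis, authors' unit) in replicate 1 and replicate 2, with filled points for thresholded lists, open points for less strict lists only and crosses for no listed peak. Only Sox4, Sox12 and Sox17 have filled points, and the dashed lines at 8.57 and 9.64 are the medians of all thresholded peaks.

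Among the SoxC genes, Sox4 had the strongest promoter peak of the 8. Sox4 (chr13:28948919-28953713 on mm10, minus strand) had a promoter signal of 9.68 in replicate 1 and 10.3 in replicate 2. These values stood at percentiles 64.8 and 59.1, above the median of both lists. The peak spanned chr13:28953180-28954000, covered the whole promoter stretch printed above and had its summit at -0.057 kb, directly upstream of the only protein-coding start.

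Sox12 (chr2:152393611-152398063, minus strand), the less studied SoxC relative of Sox4, had promoter signals of 5.91 and 7.75 in replicates 1 and 2. They stood at percentiles 8.01 and 19.4, low in both lists. Its summit lay at -0.877 kb, close to the edge of the promoter window, and with 500 bp either side of the TSS the gene was no longer called. A weaker peak with its summit at -0.164 kb, inside the CG-rich stretch printed above, was listed by the less strict lists alone, with signals of 4.66 and 4.08. The CpG ratio, the observed over the expected number of CG dinucleotides in the 2001 bp around the most 5′ start, was 0.937 for Sox12, at percentile 98.9 of all genes.

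Distal peaks of Sox4 were few. Its 1 shared distal peak lay at -6.02 kb between genes, with Sox4 as the nearest gene, and had signals of 11.2 and 10.7, at percentiles 79.8 and 64.4. This peak ranked above the promoter peak of the gene in both replicates. In the less strict lists Sox4 had 6 shared distal peaks, out to +97.0 kb on the 3′ side, and no TSS of another protein-coding gene was nearer to any of them.

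Sox12 had 4 shared distal peaks in a gene-dense stretch, and 2 of them were nearest to Sox12. The strongest lay at -8.20 kb with signals of 11.4 and 15.8, at percentiles 82.2 and 96.7, so that this upstream site ranked far above the promoter in both replicates. A peak at +1.56 kb in the untranslated exon of Sox12 had signals of 4.48 and 5.93, at percentiles 1.23 and 3.09, the lowest rank among the shared distal peaks of the 8 genes. The peaks at +34.5 kb, with signals of 6.67 and 6.00, and at +37.4 kb, with 7.90 and 9.65, had Nrsn2 as the nearest gene, so their assignment to Sox12 rests on the window. A further peak at -39.6 kb passed the threshold in replicate 2 only, with a signal of 9.21.

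In the SoxF group Sox17 alone had an accessible promoter. Sox17 (chr1:4490931-4497354, minus strand) had promoter signals of 8.98 in replicate 1 and 8.69 in replicate 2, at percentiles 55.6 and 34.7. The replicate 1 signal was above the median of its list and the replicate 2 signal below it. The peak (chr1:4496105-4496865) lay over 6 of the 7 protein-coding starts within the 1000 bp rule, and Gm37587, a transcript annotated as antisense, also starts within 1000 bp of its summit, so accessibility at the 2 genes cannot be told apart.

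Sox17 had 3 shared distal peaks. The one at -74.6 kb, in a region between genes where Sox17 was the nearest gene, had signals of 12.4 and 14.8, at percentiles 88.1 and 94.0. It was the highest ranked shared distal peak of the 8 genes in replicate 1 and ranked above the Sox17 promoter in both replicates. A second lay at +3.06 kb, 0.258 kb past the annotated 3′ end, with signals of 8.34 and 9.56, close to the list medians. The third, at +75.7 kb with 7.88 and 9.04, was nearer to the start of Rp1, a photoreceptor gene, and a peak at +66.2 kb passed the threshold in replicate 2 only, with a signal of 8.14. None of the motifs searched had a match in the summit windows of these 3 peaks.

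Sox7 (chr14:63943673-63950732, plus strand), which in the mouse acts in the early blood-forming endothelium, had 1 shared distal peak and no promoter peak. The peak lay at +14.2 kb, 7.18 kb past the 3′ end of the gene, with signals of 9.49 and 10.0, at percentiles 62.6 and 55.3. Both replicates placed it above the median of their list. Its window held GAGGAAGT, the site form used here for PU.1, an ETS factor of the blood lineage. All the other 4 shared distal peaks of Sox7 in the less strict lists were nearer to other genes.

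Sox18 (chr2:181669836-181671640, minus strand), known for vascular and lymphatic endothelium, had 2 shared distal peaks and no promoter peak. The one at +11.9 kb had signals of 9.58 and 9.96 and was nearest to Gm29797. The one at -7.35 kb had signals of 7.92 and 7.02 and was nearest to Tcea2, a transcription elongation factor gene. No thresholded shared peak was therefore nearest to Sox18, and in the less strict lists only the peak at -3.96 kb was, with signals of 4.39 and 4.58. The promoters of Uckl1, Prpf6 and Rgs19 within this window had peaks in both thresholded lists, while that of Sox18 had none.

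The SoxD genes had no promoter peak in both thresholded lists, and the 2 long ones carried peaks in their introns. Sox5 (chr6:143828425-144781977, minus strand, 954 kb) had 5 shared distal peaks, and Sox6 (chr7:115470872-116038796, minus strand, 568 kb) had 4. All 9 were intronic and all were counted as nearest to or inside the gene. Long genes offer more room: per 100 kb of searched sequence Sox5 had 0.524 and Sox6 0.599 peaks, against a median of 0.50 and a mean of 0.645 over all genes. In the less strict lists Sox5 had 1.57 and Sox6 1.35 per 100 kb, both below the median of 2.00 over all genes.

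**Figure D2:**
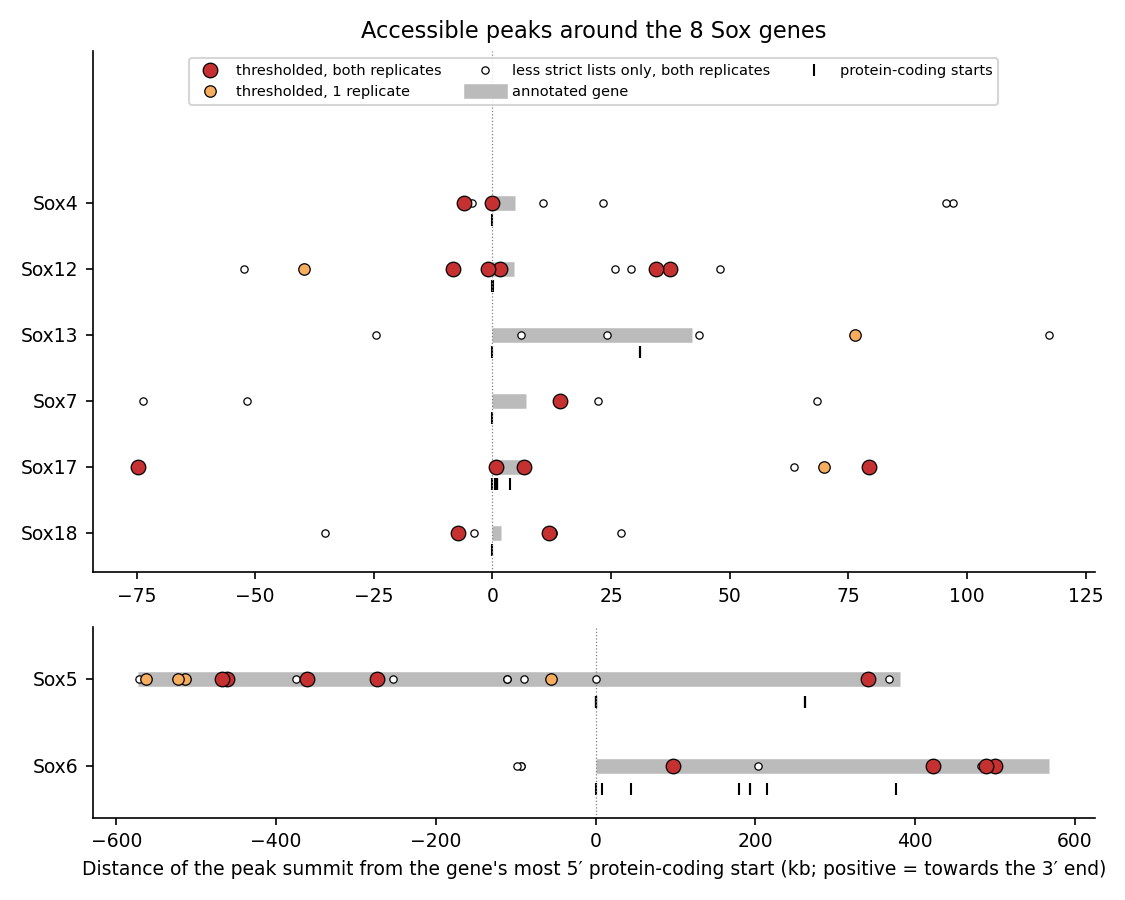
Peak summits by their distance in kb from the most 5′ protein-coding start (x axis) for each Sox gene (rows), with the annotated gene as a grey bar and its protein-coding starts as ticks. Red points are thresholded in both replicates, orange ones in 1 replicate and small white ones less strict only. Peaks at promoters of other genes are not drawn. The red points of Sox5 and Sox6 lie along the gene bodies, and Sox13 has no red point.

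Sox5, a SoxD protein best known with Sox6 in cartilage, had its 5 shared peaks spread widely. The peak at +78.8 kb had signals of 11.7 and 11.3, at percentiles 83.7 and 71.9. The other 4 lay upstream of every protein-coding start, in introns spanned by longer transcripts that are not annotated as protein-coding. They stood at -274 kb with signals of 10.1 and 11.8, at -361 kb with 10.0 and 9.63, at -461 kb with 7.11 and 9.54, and at -468 kb with 10.0 and 12.6. For the peaks at -461 and -468 kb the nearest protein-coding TSS was that of Bcat1, 362 and 355 kb away, and they were assigned to Sox5 because they lie inside it.

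A further 4 Sox5 peaks passed the threshold in 1 replicate. The one at -514 kb had a signal of 11.7 in replicate 2. Replicate 1 listed it with 9.93 in the less strict list, where its -log10 global IDR of 0.968 was under the 1.30 needed. Sox5os5, a transcript annotated as antisense, starts within 1000 bp of its summit. At the promoter, only the group of starts near 144209568 had peaks, in the less strict lists. An interval listed in both replicates had signals of 4.24 and 4.11. A separate interval, listed in replicate 2 only, had 4.72. The starts near 143947106 had none in either replicate.

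Sox6, which in the mouse silences embryonic globin genes and supports red cell maturation, had its strongest shared peak at +112 kb, with signals of 11.3 and 11.5 at percentiles 81.2 and 73.7. The others stood at +123 kb with 7.53 and 9.15, at +46.2 kb with 7.56 and 9.54, and at +53.1 kb with 8.65 and 8.73. The 2 windows at +112 and +53.1 kb held AGATAA, the GATA form searched, and the second held it 2 times, 1 in each orientation. The call of a Sox6 promoter in the less strict lists joined different starts: replicate 1 had a signal of 3.85 near the start at 116031047, and replicate 2 had 3.78 near the one at 116038744. The replicate 2 peak was nearer to the start of 1110004F10Rik, a neighbour on that side, so no single Sox6 start had a peak in both replicates.

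Sox13 (chr1:133382303-133424377, minus strand), a SoxD protein of γδ T cells in the mouse, was the only one of the 8 without a shared distal peak. A single thresholded peak, at +45.2 kb and nearest to Ren1, was listed in replicate 1 only, with a signal of 5.67. The less strict lists gave 6 shared distal peaks, of which 4 were nearest to or inside the gene. Those at -6.90 kb, with signals of 5.78 and 8.22, and at +5.97 kb, with 5.70 and 5.40, were intronic. Replicate 2 alone listed a promoter peak, with a signal of 4.88 at -0.026 kb of the most 5′ start.

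Together the 8 genes had 20 shared distal peaks, and 7 of the 8 had at least 1, against 63.2% of all protein-coding genes. The median was 2.5 peaks per gene for the 8, against 1 for all genes, and the means were 2.5 and 1.40. Per 100 kb of searched sequence the medians were 0.562 and 0.50. A peak nearest to or inside the gene was found for 6 of the 8, all but Sox13 and Sox18, against 29.1% of all genes. Of the 20 peaks 15 were of this kind, 9 of them inside the long genes Sox5 and Sox6. The matching share of peaks over all genes is not given. These counts were not adjusted for gene length. The search window had a mean of 357 kb for the 8 and 224 kb for all genes, with medians of 202 and 200 kb. In the less strict lists all 8 had a shared distal peak, against 85.1% of all genes, and the 8 together had 62.

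Of the 20, 9 were intronic, 10 lay between genes and 1 was in an untranslated exon. Replicate 2 gave the higher signal in 15 of the 20, in lists whose medians differ in the same direction. The signals ran between 4.48 and 12.4 in replicate 1 and between 5.93 and 15.8 in replicate 2. Their median percentile was 56.8 in replicate 1 and 49.9 in replicate 2, so the set sat near the middle of the lists, and the median over all shared distal peaks in replicate 1 was 52.4. The GC content of the summit windows had a median of 55.0% for the 20 and 53.5% for all 11202 shared distal peaks. The 31 bases at the summit of each of the 20 peaks and of the 3 promoter peaks occurred 1 time in the genome.

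**Figure D3:**
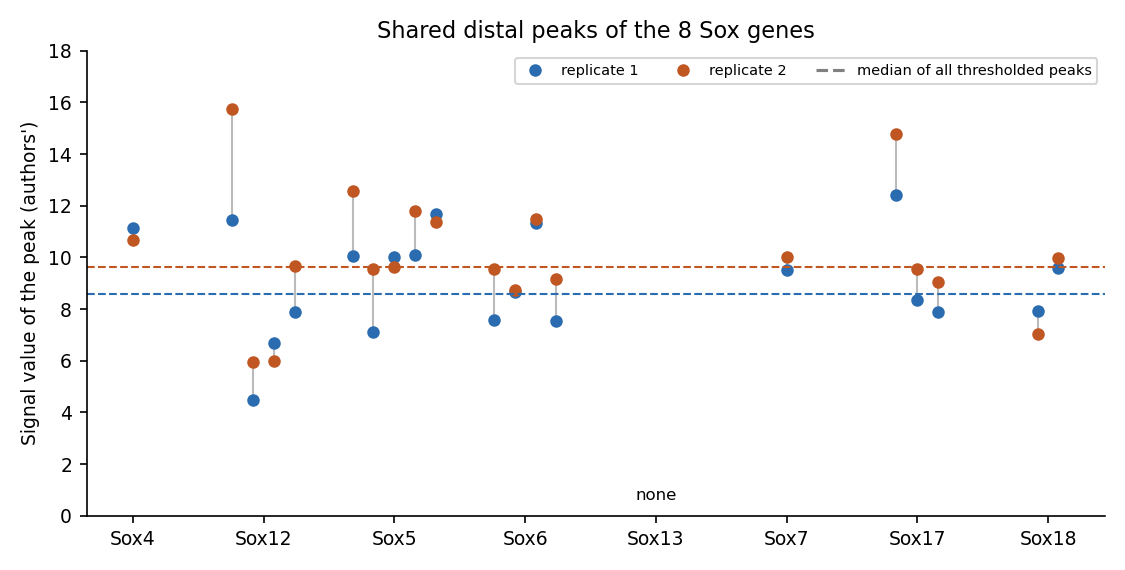
Signal values (y axis, authors' unit) of the 20 shared distal peaks, grouped by Sox gene and ordered by position within it, with a line joining replicate 1 and replicate 2 of a peak. The highest replicate 2 values are 15.8 at Sox12 and 14.8 at Sox17, and dashed lines are the medians of all thresholded peaks.

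Letter matches were counted on both strands of the summit windows, 50 bases to either side, and are descriptions, not binding sites. Only the letters given were searched, so other forms of a site, such as TGATAA in the Sox7 window, were not counted. The SOX core ACAAAG was in 3 of the 20 windows (15%), against 7.17% of all shared distal peaks. The variant ACAATG was in 1 (5%), against 4.38%, and the variant ending in TA, written ACAATA, was in 1 (5%), against 1.79%. Any of these SOX cores was found in 5 of the 20 windows (25%), against 12.7% of all. With 100 bases to either side the count was again 5 of 20, against 26.0% of all, and ACAAAG was in 3, against 15.03%, so the difference from all peaks was not seen in the wider window. The 5 of the narrower window were the windows at +34.5 kb of Sox12, +78.8 kb and -461 kb of Sox5, +123 kb of Sox6 and +11.9 kb of Sox18, and the Sox5 window at -461 kb held CTTTGT 2 times. Over the 62 less strict peaks the share was 14.5%, against 13.6% of all. TGTGGT, the RUNX form searched, was in 2 of 20 (10%), against 21.9%. AGATAA, the GATA form searched, was in 2 of 20 (10%), both of Sox6, against 3.89%. CCGGAA, the ETS form searched, was in 1 of 20 (5%), against 3.97%. GAGGAAGT, for PU.1, was in 1 of 20 (5%), against 8.39%. The E-box CAGCTG was in 1 of 20 (5%), against 10.2%, and the AP-1 site TGANTCA was in 0, against 6.05%. Over the 62 less strict peaks AGATAA was in 8 (12.9%), against 4.55% of all, and TGTGGT in 5 (8.06%), against 19.3%. GAGGAAGT was in 5 (8.06%), against 7.21%, and CAGCTG in 6 (9.68%), against 9.1%. CCGGAA was in 2 (3.23%), against 3.05%, and TGANTCA in 3 (4.84%), against 5.85%. The SOX, RUNX and CAGCTG matches at +123 kb of Sox6 stood side by side without overlap. Counts of 20 windows are small, and a match in 1 more window moves a share by 5 percentage points.

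Promoter peaks were more frequent at CpG-rich starts over the genome. The share of genes with a promoter peak in both replicates was 9.25% in the lowest tertile of CpG ratio, 49.3% in the middle and 65.4% in the highest. None of the 8 was in the lowest tertile. In the highest tertile 2 of 5 had a peak, Sox4 and Sox12 but not Sox13, Sox7 or Sox18, and in the middle tertile 1 of 3, Sox17. The CpG ratio of Sox13 was 0.751, that of Sox7 0.770 and that of Sox18 0.722, all above the 0.540 of Sox17, which had the peak.

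**Figure D4:**
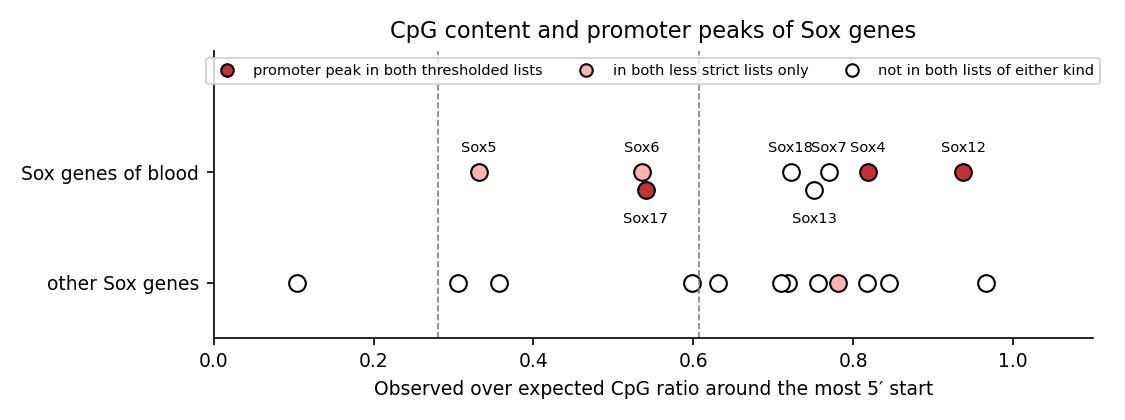
Observed over expected CpG ratio around the most 5′ start (x axis) for the 8 Sox genes of blood (upper row) and the 12 other Sox genes (lower row), filled by whether a promoter peak was in both thresholded lists (red), in both less strict lists only (pink) or neither (white). Dashed lines divide all genes into tertiles; white points lie in the highest tertile in both rows.

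Of 12 other Sox genes, among them Sox2, Sox9, Sox10, Sox11 and Sry, 0 had a promoter peak in both thresholded lists, against 41.3% of all genes. Sox30 alone had one in both less strict lists, against 58.0% of all genes. Sox8 had a thresholded promoter peak in replicate 2 only. Their CpG ratios lay in the highest tertile for 8 of the 12 and in the middle tertile for 3. A shared distal peak was found for 3 of the 12, against 63.2% of all genes. The 12 had 4 such peaks in all, and 0 of these were nearest to or inside the gene. Over all genes, 29.1% had a peak of that kind. For the 8 genes above it was 15 of 20, and 9 of those 15 lie inside the long genes Sox5 and Sox6. Among 7 relatives that share the HMG box, 4 had a promoter peak, namely Tcf7l1, Hbp1, Bbx and Cic, against 41.3% of all genes. In the less strict lists 6 did, against 58.0%. All 7 had a shared distal peak, against 63.2% of all genes, and 17 of their 24 were nearest to or inside the gene. Tcf7, known from T cells, did not have a promoter peak in both replicates by either kind of list.

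Marker lists were read the same way to set the label of the cells beside the Sox values. Of 12 stem cell genes, 5 had a promoter peak in both replicates, namely Kit, Hlf, Meis1, Cd34 and Robo4. This was 41.7%, near the 41.3% of all genes. In the less strict lists 11 of the 12 did, against 58.0% of all genes. Of 11 endothelial genes, 2 did, Cdh5 and Esam, and 9 in the less strict lists. Stem cells are known to express several of the endothelial genes, and whether endothelial cells contributed to the Sox17, Sox7 or Sox18 peaks was not tested. Of 8 erythroid genes, Tfrc alone did, and 4 in the less strict lists. Of 8 B cell genes, Pax5 alone did, and 2 in the less strict lists. Of 9 T cell genes, Cd3d and Maf did, in both kinds of list. The promoters of the B and T cell lists lay mostly in the lowest tertile of CpG ratio, with 5 of 8 and 6 of 9 genes there. For the stem cell, endothelial and erythroid lists it was 4 of 12, 3 of 11 and 4 of 8.

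**Figure D5:**
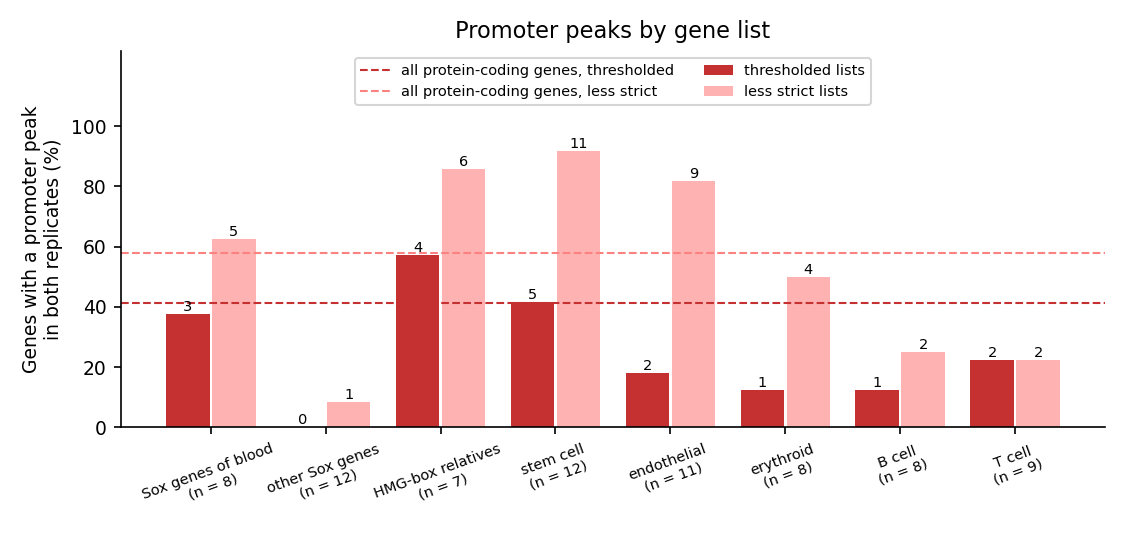
Share of genes with a promoter peak in both replicates (y axis, percent; counts above the bars) for the Sox genes of blood and 7 other lists, in thresholded (dark) and less strict (light) lists. Dashed lines are all protein-coding genes at 41.3% and 58.0%; the other Sox genes reach 0 and 1 of 12.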

How the data were processed

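ATAC-seq peak lists of 2 HSC libraries, replicates 1 and 2 of 1 group, were analysed. Per the labels, they came from the ENCODE project and were mapped to mm10; which aligner and peak caller were used is not stated there. Each line of the deposited lists gives a peak's signal value, whose normalization is not stated, and the -log10 of its p-value and q-value; in the authors' ranked lists 2 more columns hold the -log10 IDR as a score (local and global), and the thresholded peaks start at a global score of 1.30. Values are the authors' own. Those of the per-replicate lists cover each library alone. The series-level lists, used only as alternatives, were derived from the alignments of both libraries. Lines with the same interval were merged at the strongest summit. Peaks overlapping by 1 bp or more were shared. Genes and starts came from GENCODE M21, using protein-coding transcripts. The peaks' chromosome ends fitted the GRCm38 lengths. Sequence letters came from GRCm38 and RefSeq promoters.

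Peak lists hold no read counts, so depth is unknown and intervals cannot be given. No test was run. All 8 genes are named, with nearest other genes, and from other lists the genes with promoter peaks. The genes, lists and motifs were chosen with earlier results of these data known. Counting was tested on simulated peaks. Alternatives were other peak lists, windows, overlaps and single replicates. Tools were Python 3.11.15, pandas 2.3.3, numpy 2.4.6 and matplotlib 3.10.9.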

Additional observations from a re-analysis of the deposited data

How the results depend on the processing

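The promoter count of 3 of 8 was also 3, with Sox4, Sox12 and Sox17, with either replicate left out (44.1% and 45.97% of all genes). It was 3 with 2000 bp either side (42.9% of all genes), with the most 5′ start only (38.5%) and with the summit rule (40.8%). With 500 bp it was 2, against 39.97% of all genes. It was 3 in both series-level lists too, each a single list pooled over the replicates. The shares of all genes were higher there, 51.9% and, in the conservative list, 54.7%. It was 1, Sox4, among the 50% strongest peaks of each replicate, against 25.6% of all genes. It was 5 in the less strict lists, against 58.0%. With 500 bp or the most 5′ start only it was 4 in these lists, without Sox6, against 55.6% and 54.2%. With 2000 bp it was 5, against 60.6%. Leaving out replicate 1 gave 6 in these lists, against 61.2%, and leaving out replicate 2 gave 5, against 60.2%. Beside the 20 shared distal peaks, there were 48 distal peaks in the series-level thresholded list and 54 in the conservative list. In these pooled lists every distal peak was counted, with no overlap between replicates required. The shared count was 62 in the less strict lists, 9 among the 50% strongest and 10 inside the gene only. Those nearest to or inside the gene, 15 in all, became 29, 33, 37 and 8 in the first 4 of these. Members with a shared distal peak, 7 in the main count against 63.2% of all genes, were 3 inside the gene only, against 15.7%. They were 7 among the 50% strongest, against 37.9%, and 7 with a window of 50 kb, against 45.7%. They were 8 in the less strict lists, against 85.1%. Genes with any distal peak were 8 in the pooled series-level thresholded and conservative lists, against 80.7% and 83.6%. Leaving out either replicate gave 24 distal peaks, 17 of them nearest to or inside the gene, and 7 to 8 genes with one, against 71.6% and 71.2% of all. A window of 50 kb gave 18 distal peaks, and an overlap of at least 50% of the shorter peak gave 20. For percentiles of promoter peaks, the single replicates stood between 59.1 and 64.8 for Sox4, 8.01 and 19.4 for Sox12, and 34.7 and 55.6 for Sox17. The CTCF core CCNCTNGTG, added after the sequences were seen, had a match in 1 of 20 windows, against 6.1% of all. With 100 bases either side of the summit AGATAA was in 4 of the 20 windows, against 8.76% of all, TGTGGT in 4, against 32.6%, and the E-box in 3, against 18.1%. SOX cores were in 5, against 26.0%. Which of the list settings explains the differences was not tested. No paired analysis was possible because there is 1 group. Peak lists without read counts and 2 replicates from 1 donor identifier limit the precision.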
